A study of Mus musculus with 42 samples.

Results

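The genes described here mark somites and the paraxial mesoderm from which they form: *Meox1*, *Meox2*, *Tcf15*, *Foxc2*, *Uncx*, *Pax1*, *Pax3*, *Myf5*, *Tbx6* and *Mesp2*. They were chosen by name, as textbook markers and with earlier results of these data known, and matched to the counts through GENCODE symbols, which gave 10 genes of the 56953 in the deposited counts. Somites are blocks of mesoderm that bud off on both sides of the neural tube from the presomitic mesoderm, and they give rise to the vertebrae, dermis and skeletal muscle of the trunk. *Tbx6* and *Mesp2* act in the presomitic mesoderm, where a segmentation clock sets the pace of budding. *Tcf15*, *Meox1* and *Meox2* act in the newly formed somite, *Uncx* and *Pax1* mark its posterior and ventral parts, *Foxc2* is used in somites and in other mesoderm, *Pax3* marks the dorsal somite as well as the dorsal neural tube and neural crest, and *Myf5* starts skeletal muscle development.

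The libraries are poly-A RNA of the left and of the right heart field of 21 mouse embryos at E8.5i, when the looping heart has tilted ventricles, 42 libraries in all. Wild types, Ccdc40+/+, were 5 embryos with rightward looping (4 male, 1 female). Homozygous Ccdc40lnks/lnks mutants with rightward looping were 11 embryos (6 male, 5 female), and those with inverted looping were 5 embryos (3 male, 2 female). *Ccdc40* codes for a component that motile cilia need to beat, the lnks allele is a nonsense mutation made by chemical mutagenesis and kept in a background that the study spells C56Bl6J, and no embryo received a treatment. The 3 groups are called wild type, mutant rightward and mutant inverted, named by genotype and looping direction. The study divides mutants by laterality into situs solitus, situs inversus totalis and heterotaxy, and its mutants with rightward looping include both situs solitus and heterotaxy. The sample labels do not give that division, so it was not used here, and values of the rightward mutants pool embryos that can differ in laterality.

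The tissue matters for these genes. Each sample is 1 side of the heart field, labelled as such, after the heart tube and the rest of the embryo had been trimmed off. Its posterior limit lay at the second somite, so it borders on the tissue that these genes mark. In bulk tissue of this kind, fewer cells of a type and less RNA per cell cannot be told apart. Library totals ranged from 36073684 to 62970327 counts. *Ccdc40* lay between 15.2 and 26.5 CPM, which are counts scaled to a library of 1000000, in the 10 wild-type libraries and between 8.83 and 14.8 in the 32 mutant libraries, without overlap, so that the genotype labels and the counts go together.

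Before the values, the sequence upstream of the members that the results turn on is shown, for the called members, *Tcf15* and *Myf5*, and for *Meox1* and *Meox2*. For each gene the 200 bases before its most upstream annotated start were read from GRCm39. The window of *Meox1* is chr11:101785228-101785427 on the minus strand, that of *Meox2* chr12:37158333-37158532 on the plus strand, that of *Tcf15* chr2:151985274-151985473 on the plus strand and that of *Myf5* chr10:107321996-107322195 on the minus strand. All are written 5′ to 3′ along the gene's strand, and capitals mark the letters CANNTG, the E-box core that basic helix-loop-helix factors such as TCF15, MESP2 and MYF5 can bind.
Meox1: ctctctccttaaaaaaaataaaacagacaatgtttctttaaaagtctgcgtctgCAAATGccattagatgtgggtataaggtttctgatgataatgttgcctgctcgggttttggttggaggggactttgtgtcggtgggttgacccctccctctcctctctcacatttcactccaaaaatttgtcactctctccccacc
Meox2: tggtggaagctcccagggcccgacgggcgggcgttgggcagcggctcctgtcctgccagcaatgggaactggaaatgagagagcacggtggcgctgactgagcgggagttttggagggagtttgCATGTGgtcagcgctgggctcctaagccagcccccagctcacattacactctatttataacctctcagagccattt
Tcf15: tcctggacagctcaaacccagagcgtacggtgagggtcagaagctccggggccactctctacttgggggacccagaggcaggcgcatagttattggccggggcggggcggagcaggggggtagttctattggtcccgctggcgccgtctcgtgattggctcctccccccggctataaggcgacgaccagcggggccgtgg
Myf5: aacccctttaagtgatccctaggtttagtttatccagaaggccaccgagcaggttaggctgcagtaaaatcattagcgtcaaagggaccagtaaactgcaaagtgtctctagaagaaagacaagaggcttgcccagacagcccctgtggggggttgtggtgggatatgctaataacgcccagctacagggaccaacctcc
*Meox1* and *Meox2* each held 1 match, and *Tcf15* and *Myf5* held none. Over all 10 members, 5 held at least 1 match, against 57.8% of the windows of 21664 protein-coding genes. The letters AGGTGT, a core of sites for T-box factors such as TBX6, were in none of the 10 windows and in 10.6% of all windows, and TAATTA, a core for homeodomain factors such as MEOX1, was in none of the 10 and in 4.45% of all. Both strands were searched, CANNTG and AGGTGT can overlap in the letters CAGGTGT, and a window without a match says only that these letters are not in it.

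Levels were compared between genes as CPM per kb of exon, since longer transcripts collect more reads. *Meox1* was the most abundant member, at 44.8 ± 18.7 CPM per kb (SD, n = 42 libraries), followed by *Foxc2* at 8.28 ± 2.56. *Meox1* exceeded *Foxc2* in 42 of 42 libraries, and *Foxc2* exceeded the next gene, *Meox2*, in 41. These first steps of the order were larger than the sum of both genes' SD, and none of the later steps was. *Meox2* had 2.45 ± 2.10 CPM per kb, *Pax3* 1.74 ± 1.77, *Myf5* 1.36 ± 1.61, *Tcf15* 1.31 ± 0.920 and *Pax1* 0.711 ± 0.287. *Uncx* followed at 0.408 ± 0.360 CPM per kb, *Tbx6* at 0.202 ± 0.0963 and *Mesp2* at 0.0692 ± 0.0563. *Myf5* stood above *Tcf15* by its mean but in 15 of 42 libraries, and its coefficient of variation over libraries, 1.19, was the highest of all members. The order was therefore clear for *Meox1* and *Foxc2*, and the genes from *Meox2* down were not separated from their neighbours by more than their spread.

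**Figure D1:**
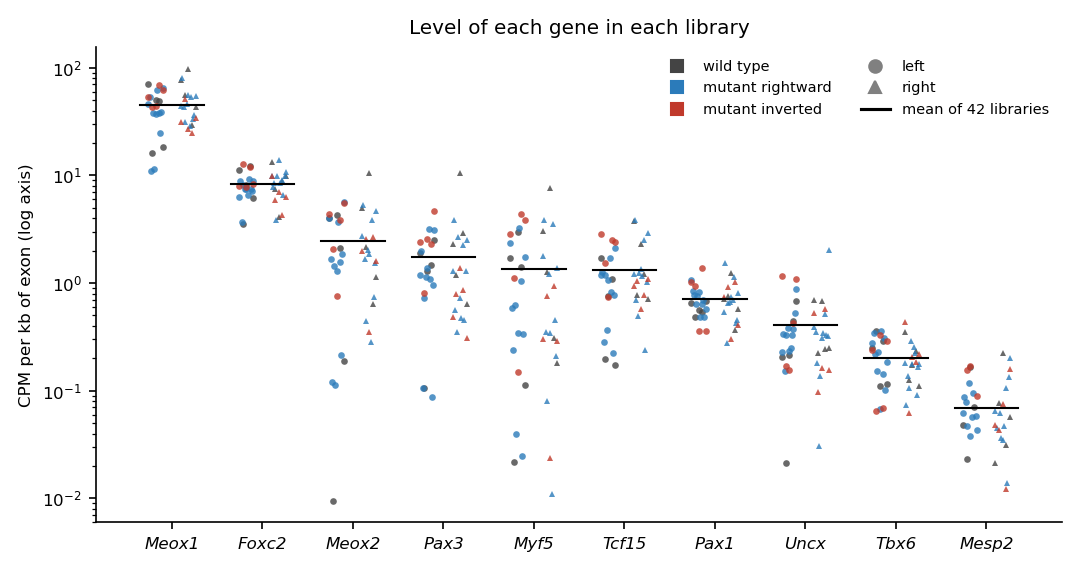
Levels of the 10 genes in CPM per kb of exon (log axis), with 1 point for each library, circles for the left and triangles for the right, coloured by group, and a line at the mean of 42 libraries. *Meox1* lies above all others, *Meox2*, *Pax3* and *Myf5* spread the most, and 5 libraries with a *Mesp2* count of 0 are not drawn.

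The members differed in how far they varied. *Meox1* ranged from 24.97 CPM on the left of the embryo 3_7 to 221.5 on the right of the embryo 10_1, a ratio of 8.87. *Foxc2* ranged over a ratio of 3.99, *Pax1* of 5.56, *Tbx6* of 6.99 and *Tcf15* of 22.2. *Pax3* ranged from 0.536 to 65.3 CPM, a ratio of 122. *Meox2* had 1 count on the left of the embryo 8_1 and of 1031 on the right of 10_1, and *Myf5* had 1 count on the right of 19_4 and of 664 on the right of 10_1. *Meox1* had at least 1147 counts in each library, while *Meox2* and *Myf5* each came down to a single count in the library named. *Mesp2* had a count of 0 in 5 libraries and at most 18 counts, and *Tbx6* had 4 to 50, so that the ratios of these presomitic genes rest on few counts. A count of 0 allows up to 3 counts, or 0.0832 CPM in the smallest library, and this limit covers counting error only.

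The first comparison asked how the right side differed from the left side within wild-type embryos. *Tcf15*, a basic helix-loop-helix factor of the young somite, was the member with the most regular difference. Its left values were 2.34, 0.2696, 1.04, 1.51 and 0.236 CPM in the embryos 7_1, 8_1, 10_1, 17_7 and 22_4, and its right values were 5.19, 1.05, 3.14, 1.67 and 0.982 CPM. The right exceeded the left in 5 of 5 embryos, while the ranges of both sides overlapped. The mean log2 right over left per embryo, with a prior count of 2, was 1.30 ± 0.71 (SD, n = 5), with an exact two-sided sign-flip p of 0.0625, the smallest that 5 embryos allow. Among all genes tested in wild types, 2.86% were higher on the right in every embryo.

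The quasi-likelihood test of edgeR with the embryo as a block called 0 of the 10 members at an adjusted p (Benjamini-Hochberg over all genes tested) under 0.05, and it called 0% of the 23182 genes tested in wild types. *Tcf15* had a log2 fold change of 1.30 ± 0.30 (SE, n = 5 embryos, adjusted p = 1.00 by edgeR) and was the 1 member with an unadjusted p under 0.05, which 2.76% of the genes had. DESeq2 called 1 member, *Tcf15*. The fitted log2 right over left was 0.67 ± 0.34 (SE) for *Meox1*, 1.27 ± 0.92 for *Meox2*, 1.13 ± 0.77 for *Pax3* and 0.96 ± 0.83 for *Myf5*, and none of these passed. Over the 10 members the median was 0.68, beside 0.00 over all genes tested, and 9 of 10 lay above 0. Sums of other tissue markers were also uneven between the sides of these embryos, though 0% of all genes tested were called. The summed level of 12 *Hox* genes of trunk levels was lower on the right in 5 of 5 embryos, with a mean log2 right over left of -0.39 ± 0.16 (SD, n = 5), and that of 9 lateral plate genes in 4 of 5, with -0.39 ± 0.74 (SD, n = 5). Their part in the values of the somite genes was not tested.

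*Meox1* and *Meox2*, homeobox genes that together are needed for somite development, showed where the wild-type spread came from. *Meox1* had 160.4, 36.7, 114.4, 109.7 and 41.2 CPM on the left, and 172.6, 126.8, 221.5, 65.7 and 97.3 on the right. The right was higher in 4 of 5 embryos, and the embryo 17_7 had the higher value on the left. *Meox2* had 9.52, 0.0225, 10.2, 5.06 and 0.446 CPM on the left and 11.8, 5.15, 24.9, 1.51 and 2.68 on the right, with the same 4 embryos higher on the right. *Myf5* had 3.54, 0.0449, 6.16, 2.91 and 0.236 CPM on the left and 6.36, 2.61, 16.02, 0.644 and 0.380 on the right, and again 17_7 was the exception. *Pax3* had 11.8, 0.652, 7.97, 9.13 and 15.7 CPM on the left and 14.2, 7.31, 65.3, 17.9 and 3.97 on the right, where 22_4 was the exception. The exact sign-flip p was 0.188 for *Meox1*, 0.312 for *Meox2*, 0.438 for *Myf5* and 0.312 for *Pax3*. One embryo, 8_1, gave the most uneven values, with 1 count of *Meox2* and 2 of *Myf5* on its left against 274 and 139 on its right. Without 8_1, which is also the only wild-type female, the fitted log2 right over left fell to 0.39 for *Meox1*, to 0.55 for *Meox2*, to 0.26 for *Myf5* and to 0.60 for *Pax3*, and that of *Tcf15* was 1.16. Without 17_7 it was 1.01 for *Meox1*, 2.04 for *Meox2* and 1.72 for *Myf5*, and *Pax3* had 0.57 without 10_1 and 1.83 without 22_4.

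The other wild-type members had smaller or more divided values. *Foxc2* had a mean log2 right over left of 0.11 ± 0.85 (SD, n = 5), *Uncx* of 0.76 ± 1.77, *Pax1* of 0.22 ± 0.67, *Tbx6* of -0.13 ± 0.77 and *Mesp2* of 0.36 ± 1.13. More was found on the right in 3 of 5 embryos for *Foxc2*, *Uncx*, *Pax1* and *Mesp2* and in 2 of 5 for *Tbx6*. None of these means exceeded its SD.

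In the mutants with rightward looping, the same comparison gave values on both sides of 0. The test was run on 9 members, since *Mesp2* did not pass the filter on low counts there, and edgeR called 0 of them, beside 0.0263% of 22795 genes tested. No member had an unadjusted p under 0.05, which 3.59% of the genes had, and DESeq2 called 0. *Tcf15* ranged from 0.306 to 2.93 CPM on the left, with a median of 1.47, and from 0.327 to 5.24 on the right, with a median of 1.65. Its log2 right over left ranged from -1.21 to 1.69, with a median of 0.39, and 9 of 11 embryos had more on the right (exact two-sided sign-flip permutation p = 0.104). The fitted log2 fold change of *Tcf15* was 0.53 ± 0.26 (SE).

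*Meox1* ranged from 24.97 to 146.4 CPM on the left, with a median of 85.7, and from 65.2 to 181.5 on the right, with a median of 99.1. The right was higher in 6 of 11 embryos, and its log2 right over left ranged from -1.09 in 19_4 to 2.01 in 17_1. *Meox2* and *Myf5* pointed to the same side as *Meox1* in 11 of 11 of these embryos. *Meox2* spanned log2 ratios from -3.64 to 3.94 and *Myf5* from -6.65 to 4.34, the widest of all members. The extreme of *Myf5* was the embryo 19_4, with 305 counts on the left and 1 on the right, and the opposite extreme was 17_1, with 4 on the left and 107 on the right. *Pax3* spanned log2 ratios from -2.72, also in 19_4, to 2.33 in 3_7. The fitted log2 right over left was 0.37 ± 0.24 (SE, n = 11 embryos) for *Meox1*, 0.50 ± 0.57 for *Meox2*, 0.28 ± 0.38 for *Pax3* and 0.34 ± 0.74 for *Myf5*. These values were lowest without 17_1 for *Meox1* (0.22), *Meox2* (0.23) and *Myf5* (0.012) and without 3_7 for *Pax3* (0.12), when single embryos were left out. They were highest without 19_4, at 0.52 for *Meox1*, 0.84 for *Meox2*, 0.54 for *Pax3* and 0.77 for *Myf5*, and none passed. These embryos thus had large differences between their sides but no common side.

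**Figure D2:**
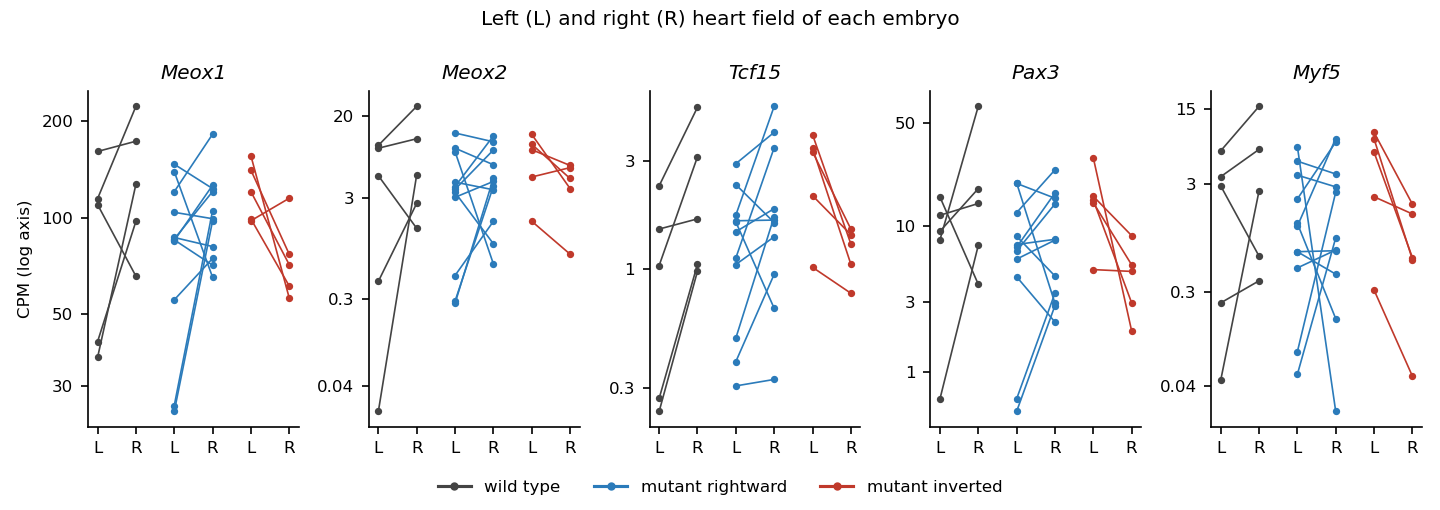
CPM (log axis) of *Meox1*, *Meox2*, *Tcf15*, *Pax3* and *Myf5* on the left (L) and right (R), with a line joining both sides of each embryo, in 5 wild types, 11 rightward and 5 inverted mutants. Lines of *Tcf15* rise from left to right in 5 of 5 wild types and descend in 5 of 5 inverted mutants, and lines of the rightward mutants go both ways.

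In the mutants with inverted looping, all 8 somite members had a fitted log2 right over left below 0. *Myf5*, the muscle determination factor, was the 1 of 10 members that edgeR called, lower on the right. Over all 22960 genes tested, 2.04% were called and 0.318% were called lower. Its left values were 5.99, 2.30, 0.311, 9.14 and 7.96 CPM in the embryos 2_7, 4_6, 10_3, 18_2 and 32_2, and its right values were 0.624, 1.59, 0.0491, 1.97 and 0.599 CPM. The left was higher in 5 of 5 embryos, though the ranges of both sides overlapped through 10_3, which was low on both. The fitted log2 right over left was -2.44 ± 0.45 (SE, n = 5 embryos, adjusted p = 0.0349 by edgeR), and the exact sign-flip p was 0.0625, the smallest possible. The call was lost without the embryo 18_2, 2_7 or 32_2, with adjusted p between 0.102 and 0.147 by edgeR, and the log2 fold change then lay between -2.53 and -2.06. In the 3 males alone it was -1.55.

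*Tcf15* had left values of 3.94, 2.12, 1.02, 3.43 and 3.30 CPM and right values of 1.30, 1.42, 0.785, 1.06 and 1.51. The left was higher in 5 of 5 embryos, and the right values lay close together while the left ones did not. Its log2 right over left was -1.10 ± 0.23 (SE, n = 5), and with an adjusted p of 0.0580 by edgeR it did not pass, although DESeq2 gave 0.000463. *Pax3* had left values of 14.95, 5.002, 15.9, 14.3 and 29.1 CPM and right values of 2.97, 4.86, 8.54, 5.39 and 1.91, with the left higher in 5 of 5. Its fitted log2 right over left was -1.67 ± 0.49 (adjusted p = 0.145 by edgeR). *Tcf15*, *Pax3* and *Myf5* were thus 3 of 10 members with the left higher in every embryo, beside 7.51% of all genes tested in this group.

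*Meox1* had 120.3, 97.7, 98.95, 155.4 and 140.3 CPM on the left and 71.3, 114.8, 61.2, 56.2 and 76.8 on the right. The left was higher in 4 of 5 embryos, with 4_6 as the exception, and the fitted log2 right over left was -0.70 ± 0.19 (adjusted p = 0.128 by edgeR). Without 4_6 it was -0.93, with an adjusted p of 0.0302 by edgeR, where its alternatives ranged from 0.00944 to 0.590. *Meox2* had 10.4, 4.91, 1.78, 9.19 and 13.1 CPM on the left and 4.75, 6.09, 0.834, 6.40 and 3.77 on the right, and 4_6 was again the exception. Its fitted log2 right over left was -0.83 ± 0.27 (adjusted p = 0.189 by edgeR). *Foxc2*, a forkhead factor, had a mean log2 right over left of -0.58 ± 0.73 (SD, n = 5), *Uncx* of -0.81 ± 1.23 and *Pax1* of -0.19 ± 0.26, none of them called. *Tbx6* had a mean of 0.18 ± 0.77 and *Mesp2* of 0.11 ± 1.27. In the 3 males alone, the fitted log2 right over left was -0.39 for *Meox2* and -0.79 for *Pax3*. Of the 10 members, 6 had an unadjusted p under 0.05 by edgeR, namely *Foxc2*, *Meox1*, *Meox2*, *Myf5*, *Pax3* and *Tcf15*, where 15.1% of all genes tested did. DESeq2 called 3, which were *Meox2*, *Myf5* and *Tcf15*. The median fitted log2 right over left was -0.77 over the 10 members and -0.01 over all genes tested.

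**Figure D3:**
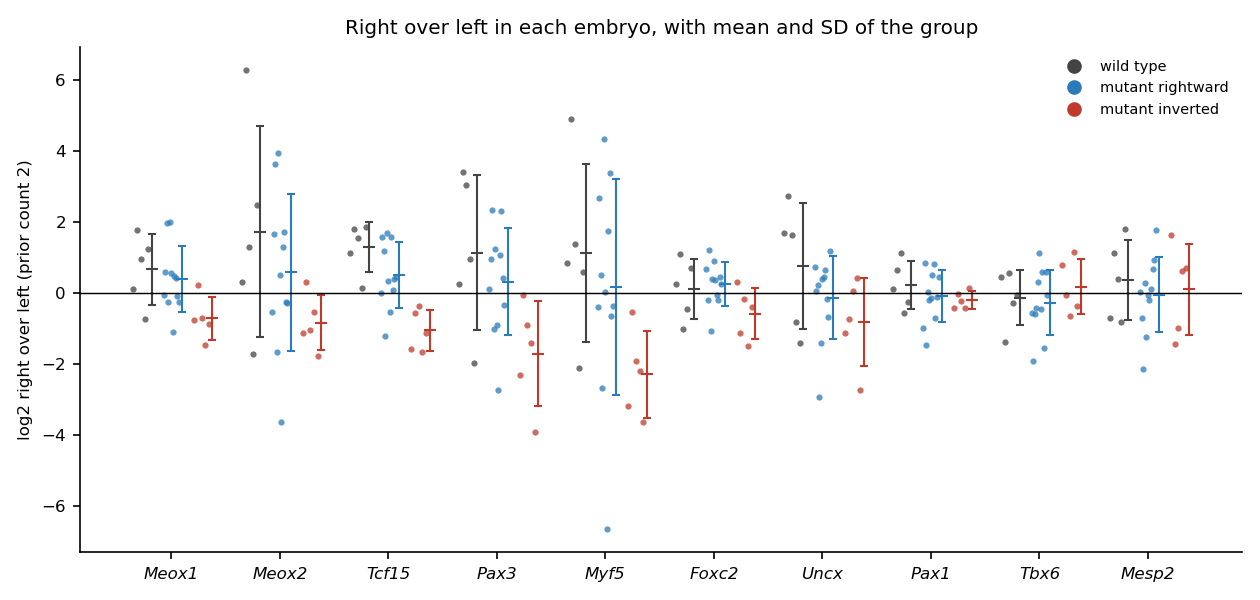
Log2 right over left of the 10 genes in each embryo (points) with the mean and SD of each group (bars), for 5 wild types, 11 rightward and 5 inverted mutants. The inverted mutants lie below 0 in 5 of 5 embryos for *Tcf15*, *Pax3* and *Myf5*, and *Tbx6* and *Mesp2* scatter around 0 in every group.

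The difference of asymmetry between groups was tested directly, as a side-by-group interaction fitted to the 42 libraries together. These comparisons share the inverted or the wild-type embryos, so they are not independent of each other or of the tests above. Between inverted mutants and wild types, edgeR called 1 of 10 members, *Tcf15*, which was lower, beside 0.513% of 26335 genes called and 0.057% called lower. Its asymmetry differed by -2.39 ± 0.50 on the log2 scale (SE, n = 5 and 5 embryos, adjusted p = 0.0300 by edgeR). The log2 ratios of *Tcf15* were 1.14, 1.80, 1.55, 0.15 and 1.87 in the wild types and -1.57, -0.56, -0.36, -1.66 and -1.11 in the inverted mutants. The groups did not overlap, which held with the inverted embryos lower for 0.847% of all genes, and the exact two-sided permutation p was 0.00794. The call of edgeR was lost without the embryo 7_1, 8_1, 10_1, 18_2 or 32_2, with adjusted p from 0.0641 to 0.102 and differences from -2.42 to -2.22. It was also lost in males alone, where the difference was -2.05 (adjusted p = 0.336 by edgeR). Without the embryo as a block it was lost too, at -2.32 (adjusted p = 0.370 by edgeR).

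The other somite genes had differences in the same direction that did not pass. *Myf5* differed by -3.39 ± 1.40 (SE, adjusted p = 0.284 by edgeR, exact permutation p = 0.0238), *Pax3* by -2.81 ± 1.00 (adjusted p = 0.204 by edgeR, exact permutation p = 0.0556), *Meox1* by -1.39 ± 0.51 (adjusted p = 0.221 by edgeR, exact permutation p = 0.0476) and *Meox2* by -2.08 ± 1.17 (adjusted p = 0.458 by edgeR, exact permutation p = 0.0714). *Meox2* differed by -1.37 without 8_1, and *Pax3* by -3.50 without 22_4, where edgeR called it (adjusted p = 0.0460, with alternatives from 0.0424 to 0.663). In males alone the differences were -0.92 for *Meox2*, -1.39 for *Pax3* and -1.82 for *Myf5*. DESeq2 called 2 members here, *Pax3* and *Tcf15*, and 4 had an unadjusted p under 0.05 by edgeR, beside 13.6% of all genes tested. Of the mean log2 ratios, *Foxc2* differed by -0.69 (exact permutation p = 0.206), *Uncx* by -1.58 (exact p = 0.143), *Pax1* by -0.41 (exact p = 0.278), *Tbx6* by 0.31 (exact p = 0.524) and *Mesp2* by -0.26 (exact p = 0.730). In size, the differences of the 2 presomitic genes were the smallest of the 10 members.

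Between inverted and rightward mutants, which share the genotype, edgeR called 0 of 10 members, beside 0.311% of the genes tested. *Tcf15* differed by -1.64 ± 0.42 (SE, n = 5 and 11 embryos, adjusted p = 0.110 by edgeR, exact permutation p = 0.00481), and DESeq2 called it as the 1 member. An unadjusted p under 0.05 by edgeR was found for 5 members, *Foxc2*, *Meox1*, *Myf5*, *Pax3* and *Tcf15*, where 10.5% of all genes tested had one. *Meox1* differed by -1.08 ± 0.43, *Meox2* by -1.35 ± 0.97, *Pax3* by -1.96 ± 0.82 (-0.89 in males alone) and *Myf5* by -2.80 ± 1.21. Between rightward mutants and wild types, edgeR and DESeq2 both called 0 of 10 members, 0 had an unadjusted p under 0.05 (3.04% of the genes tested), and 0% of the genes tested were called. *Tcf15* differed there by -0.75 ± 0.43 (exact permutation p = 0.115).

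Levels on a single side were compared next, with sex as a covariate. On the left, 0 of 10 members were called between rightward mutants and wild types (0.0242% of 24838 genes tested) and 0 between inverted and rightward mutants (0.0121%). On the right, the counts were 0 in both (0.0121% and 0.00805% of 24859 genes tested), and DESeq2 called 0 members in each of the 4 tests. In 3 of the tests no member had an unadjusted p under 0.05, beside 5.02% of all genes on the left between rightward mutants and wild types, and 3.28% and 4.26% on the right. The 1 member with such a p was *Tcf15* on the left between both mutant groups, as for 7.89% of all genes, where the inverted mutants had 2.76 ± 1.18 CPM (SD, n = 5) and the rightward mutants 1.37 ± 0.819 (SD, n = 11). Its fitted log2 difference was 1.04 ± 0.48 (SE, adjusted p = 0.612 by edgeR). On the right, *Pax3* had 4.73 ± 2.55 CPM (SD, n = 5) in the inverted mutants and 9.29 ± 7.25 (SD, n = 11) in the rightward mutants, and its log2 difference between both mutant groups was -1.10 ± 0.57 (adjusted p = 1.00 by edgeR). Wild types had a median of 14.2 CPM on the right, with 65.3 in 10_1 and at most 17.9 in the other embryos.

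Which members moved together was described by the side on which each was higher. *Meox2* was on the side of *Meox1* in 21 of 21 embryos and *Myf5* in 20, while *Tcf15* was in 16 and *Pax3* in 15. Over 11214 other genes with a mean of at least 5 CPM, the median was 11 embryos, 12.7% reached at least 15, 6.16% at least 16 and 0.0357%, or 4 genes, reached at least 20. Those 4 genes were *Meox2*, *Rev3l*, *Bag5* and *Khk*, and *Rev3l* was the other one with 21. *Uncx* and *Tbx6* were on the side of *Meox1* in 12 embryos, *Foxc2* and *Pax1* in 11 and *Mesp2* in 8. Of these, *Foxc2* alone has the mean of at least 5 CPM that was asked of the other genes. *Myf5* (mean 2.84 CPM) and *Tcf15* (1.79 CPM) also lacked it, so they are not among the genes that gave these shares. A set of 5 genes was picked by name from the 10 members, with earlier results of these data known. No share over other sets of 5 genes was computed. The genes of this set, *Meox1*, *Meox2*, *Tcf15*, *Pax3* and *Myf5*, were all higher on the right in 8 embryos and all higher on the left in 6. Wild types gave 3 of the former and 0 of the latter, rightward mutants 5 and 2, and inverted mutants 0 and 4.

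**Figure D4:**
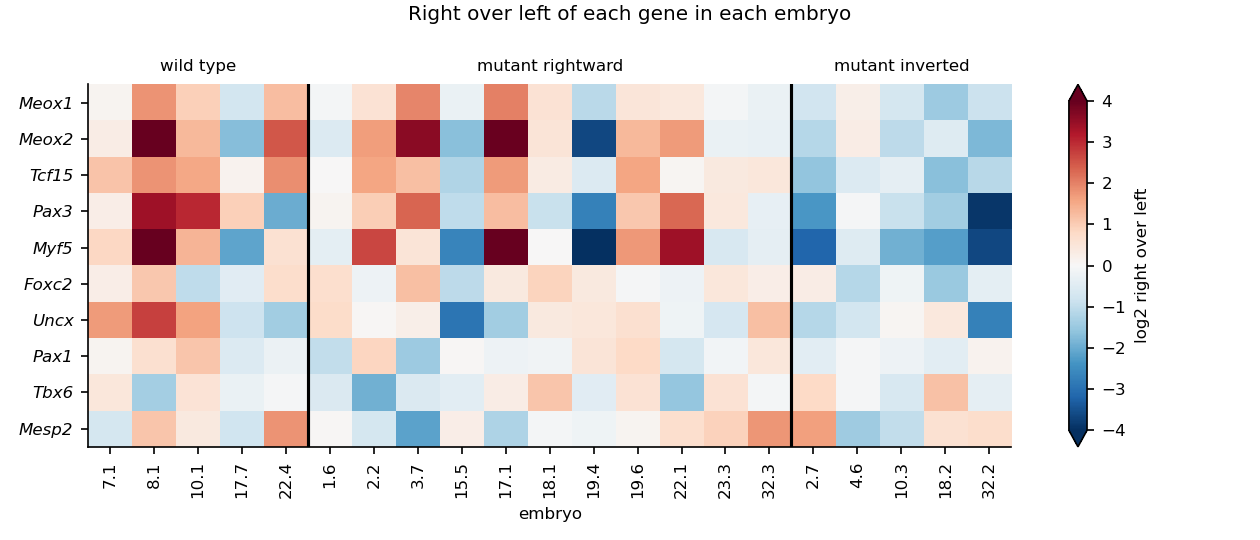
Log2 right over left of the 10 genes (rows) in each of 21 embryos (columns), red for higher on the right and blue for higher on the left, with colours saturated at 4. The first 5 rows, picked as a set from the 10 genes, share their colour within most embryos. In 4 of 5 inverted mutants all 5 of these rows are blue.

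By the correlation of log2 right over left over 21 embryos, given as a description over pooled groups, the genes most like *Meox1* were *Meox2* (Pearson r = 0.91), *Sncaip* (0.90), *Foxd2os* (0.87), *Halr1* (0.87) and *Stra6* (0.87). The genes most like *Tcf15* were *Tcf4* (r = 0.85), which encodes an E protein that can pair with other basic helix-loop-helix factors, *Itih5* (0.84), *Spsb4* (0.83), *Rgma* (0.82) and *Meox1* (0.82). Within the 11 rightward mutants alone, *Meox2* and *Meox1* had an r of 0.96 and a Spearman rho of 0.91, and *Tcf4* and *Tcf15* had an r of 0.82 and a rho of 0.77. *Pax3* stood at rank 124 of 11214 genes by likeness to *Meox1* (r = 0.67) and *Foxc2* at rank 1097 (r = 0.50). By the mean level of both sides, the genes most like *Tbx6* were *Chek2* (r = 0.69), *Rhbdd3*, *Sipa1l3*, *Tmcc2* and *Cog5* (0.65), while *Meox1* had an r of -0.01 with it. *Chek2* and the genes named with it are the top ranks among 11215 genes. *Tbx6* itself had only 4 to 50 counts, and the r that unrelated genes would reach was not computed. Within the rightward mutants *Chek2* had an r of 0.33 with *Tbx6*, *Rhbdd3* of 0.625, *Sipa1l3* of 0.10, *Tmcc2* of 0.51 and *Cog5* of 0.57. All these values come from libraries that share their depth and tissue makeup between genes.

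Other genes of the paraxial lineage were read from lists of markers. Of 13 further genes of the presomitic mesoderm and of segmentation, 11 were tested in inverted mutants, where edgeR called 2 lower on the right and 0 higher. These were *Dll1*, a Notch ligand of the segmentation clock, with a log2 right over left of -1.06 ± 0.17 (SE, adjusted p = 0.0211 by edgeR), and *Lfng*, which modifies Notch, with -1.42 ± 0.25 (adjusted p = 0.0306 by edgeR). Both are also used outside the paraxial mesoderm, for example in the neural tube. *Msgn1*, a defining gene of the presomitic mesoderm, was at 0 in 33 of 42 libraries. Of 14 genes of somite derivatives, 12 were tested and 12 lay below 0 in inverted mutants, with a median log2 right over left of -0.45. Among those that edgeR called was *Sox9*, a factor of cartilage that is also active in other tissues, at -0.38 ± 0.06 (adjusted p = 0.0162 by edgeR). Neither list had a called gene in wild types or in rightward mutants. *Myod1*, which follows *Myf5* in muscle development, was at 0 in 18 of 42 libraries.

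Markers of the neural tube, which lies between the somites, were read in the same libraries. In inverted mutants, 8 of 8 neural tube genes had a log2 right over left below 0, and edgeR called 3 of them, *Pax6* at -2.02 ± 0.36 (adjusted p = 0.0309 by edgeR), *Nkx6-1* at -1.45 ± 0.28 (adjusted p = 0.0424 by edgeR) and *Olig2* at -1.78 ± 0.35 (adjusted p = 0.0441 by edgeR). The summed level of the list lay between 52.8 and 89.5 CPM on the left and between 11.6 and 57.0 on the right of these embryos. In wild types it lay between 10.4 and 96.9 CPM on the left and 13.9 and 194 on the right, and in rightward mutants between 7.46 and 63.5 and between 9.71 and 80.9. *Olig2* was at 0 in 12 and *Sox1* in 6 of 42 libraries. *Pax3* is itself a gene of the dorsal neural tube and neural crest, so its reads need not come from somites.

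Heart muscle and lateral plate genes went the other way. In inverted mutants, 5 of 6 heart muscle genes were called higher on the right, *Ttn* at 1.27 ± 0.08 (adjusted p = 0.00250 by edgeR) and *Actn2* at 1.78 ± 0.16 (adjusted p = 0.00360 by edgeR) among them. The sum of the 6 genes lay between 897 and 1673 CPM on the left and between 1661 and 3406 on the right. In wild types this sum lay between 1198 and 3238 CPM on the left and between 609 and 2476 on the right. In rightward mutants it lay between 609 and 3395 and between 168 and 3712. Of all genes tested in inverted mutants, 2.04% were called in either direction. Of 9 lateral plate genes, 3 were called higher on the right, which were *Tbx5* at 0.74 ± 0.09, *Bmp4* at 0.84 ± 0.13 and *Osr1* at 0.60 ± 0.10 (highest adjusted p = 0.0212 by edgeR). Their sum lay between 307 and 450 CPM on the left and between 472 and 603 on the right, without overlap. In wild types the sum was between 336 and 641 CPM on the left and between 218 and 470 on the right, and in rightward mutants between 210 and 629 and between 100 and 614. The part of the tissue makeup in the differences of the somite genes was not tested.

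Embryo by embryo, the summed level of the 8 somite members and that of the lateral plate list pointed to the same side in 2 of 21 embryos, both wild types. *Meox1*, with a mean of 101 CPM over all libraries, makes up most of that sum, followed by *Foxc2* with 22.6, so its side is mostly that of *Meox1*. With heart muscle the sides were the same in 4 of 21, with the neural tube in 16, with further segmentation genes in 17 and with somite derivatives in 15. The lists for the tail bud, the notochord and trunk *Hox* genes matched the side of the somite members in 10, 11 and 10 of 21 embryos. The trunk *Hox* sum, lower on the right in 5 of 5 wild types, was lower there in 3 of 11 rightward and 3 of 5 inverted mutants. Head and pharyngeal mesoderm matched in 5, foregut endoderm and endothelium in 7 each, neural crest in 11, intermediate mesoderm in 12 and primitive blood in 13. The sum of the 8 somite members itself had a log2 right over left of 0.65 ± 0.87 (SD, n = 5) in wild types, 0.32 ± 0.78 (SD, n = 11) in rightward mutants and -0.77 ± 0.51 (SD, n = 5) in inverted mutants.

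**Figure D5:**
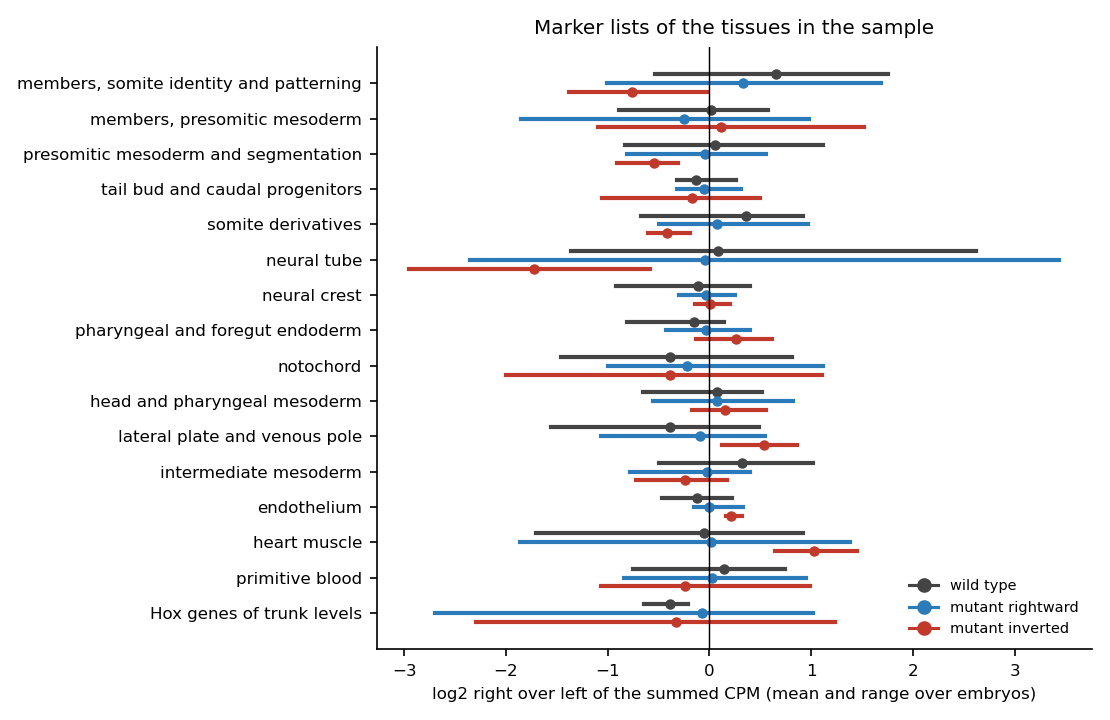
Log2 right over left of the summed CPM of each marker list, with the mean (point) and the range over embryos (line), for 5 wild types, 11 rightward and 5 inverted mutants. In inverted mutants the somite members, segmentation, somite derivative and neural tube lists lie below 0 in 5 of 5 embryos, and the lateral plate, endothelium and heart muscle lists lie above 0 in 5 of 5.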

How the data were processed

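The authors trimmed adapters, removed duplicates, used STAR for alignment to GRCm39 and featureCounts (Subread 2.0.6) for counting per Ensembl gene, and they deposited raw counts with no normalization or filter for 56953 genes. For the counting step, the strand setting, the handling of reads on several genes and the annotation release are not given in the sources used here. Identifiers were matched to GENCODE M39 (56310 matched, 32174 with their version). The members and lists were chosen with earlier results of these data known.

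Counts were scaled by TMM (factors 0.959 to 1.04) and tested by edgeR's quasi-likelihood test after filterByExpr (a minimum of 5 counts, 10 in total, large.n of 50 and min.prop of 0.2), with the embryo as a block for right against left and sex as a covariate for levels, and Benjamini-Hochberg adjustment over all genes tested. Pairs come from the embryo named in the labels. Deviations of both sides of an embryo correlated at a median of 0.414 (over 0.1 in 19 of 21 embryos). Library totals were 36073684 to 62970327 counts, and no libraries were identical. Exact two-sided tests numbered 30 sign-flip and 30 permutation tests, with no adjustment over the members. Log2 ratios per embryo used a prior count of 2. SE are the log2 fold change over the root of the F statistic. The spread is between embryos of one collection.

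All 10 members are named. From the other lists up to 4 called genes were named for a comparison, except for a result that is not reported here, and the 5 genes most like *Tcf15*, *Meox1* and *Tbx6* among those with a mean of 5 CPM. *Myf5*, *Meox2* and other genes named only for their count, and the list genes at a count of 0, were chosen after their values were seen. Scripts were tested on simulated data. Alternatives were DESeq2, no embryo block, no sex term, no filter, library size alone, males alone, a prior count of 0.5 and leaving out single embryos, and, chosen after seeing the data, newer quasi-likelihood dispersions. Tools were R 4.3.3, edgeR 4.0.16, limma 3.58.1 and DESeq2 1.42.0.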

Additional observations from a re-analysis of the deposited data

Results flagged for a closer look

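The asymmetry of *Tcf15* differed between inverted mutants and wild types by -2.39 on the log2 scale (SE 0.50, adjusted p = 0.0300 by edgeR), which puts it here because the difference between groups was itself tested.

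In 60 groups of 5 embryos that were checked for a single distant value, 2 had one, both on the right of the wild-type embryo 10_1. These were *Pax3*, at 65.35 CPM, where the gap to the next embryo was 0.773 of the range, and *Mesp2*, at 0.434 CPM, where it was 0.722. Chance sets off this rule in about 1 of 20 groups.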

How the results depend on the processing

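Which members passed the threshold depended on the processing in 3 comparisons and on the tool in 1 more. For right over left in inverted mutants, 1 member passed (*Myf5*). DESeq2 gave 3, no filter on low counts 4 (*Meox1*, *Myf5*, *Pax3*, *Tcf15*), newer dispersions 2, no replicate block 0, males alone 0 and single embryos left out 0 to 2. For inverted mutants minus wild types, 1 passed (*Tcf15*), and DESeq2 gave 2, no replicate block 0, males alone 0 and single embryos left out 0 to 2. For inverted minus rightward mutants, 0 passed, and DESeq2 and newer dispersions gave 1 each (*Tcf15*). In wild types 0 passed, and DESeq2 gave 1 (*Tcf15*, adjusted p = 0.0360 by DESeq2, where edgeR's alternatives reached 1.00). Without the embryo as a replicate block, *Myf5* in inverted mutants had an adjusted p of 0.188 and the difference of *Tcf15* one of 0.370 (edgeR), where their alternatives ranged from 0.000246 to 0.341 and from 0.000217 to 0.370, and the block changed no other call of a member. In the levels and in rightward mutants minus wild types, 0 members passed under every alternative run. Leaving out rightward mutants was not run for the interaction and level fits.

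The fitted sign changed in 80 of 1150 values of a member under an alternative. For *Meox1*, *Meox2*, *Tcf15*, *Pax3* and *Myf5*, a set picked from the members, it changed in 17 of 585 values over all comparisons and in 0 of the 195 for right over left. *Mesp2* (21 changes) and *Pax1* (14) changed most.

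Counts over all genes moved too. In inverted mutants 468 genes passed, against 1755 by DESeq2, 942 with no filter, 305 without the block and 53 in males. For inverted mutants minus wild types 135 passed, against 911, 207, 7 and 3, and 212 with newer dispersions. For inverted minus rightward mutants 82 passed, against 456, 131, 17 and 7. Single embryos left out moved these counts by over 1.5 times. The count in inverted mutants ranged from 138 to 446 and was 138 without 32_2, 181 without 18_2 and 222 without 4_6. That for inverted mutants minus wild types ranged from 17 to 641 and was 17 without 32_2, 25 without 18_2, 39 without 10_1, 62 without 8_1, 77 without 7_1, 87 without 10_3, 260 without 2_7 and 641 without 22_4. That for inverted minus rightward mutants ranged from 18 to 75 and was 18 without 18_2, 19 without 32_2, 20 without 4_6 and 52 without 10_3. In rightward mutants 6 passed, against 32 by DESeq2 and 1 without the block or in males, and in wild types 0, against 20 by DESeq2 and 2 with no filter. The count of 6 ranged from 2 to 8 with single embryos left out, and was 2 without 1_6, 3_7, 17_1, 18_1, 19_6, 22_1 or 32_3 and 3 without 23_3. For levels, DESeq2 gave 104 in place of 3 (inverted over rightward mutants) and 20 in place of 6 (rightward mutants over wild types) on the left, and 18 in place of 2 and 6 in place of 3 on the right. With single embryos left out, these counts were 2 and 1 to 11 on the left, and 0 and 0 to 12 on the right. Between rightward mutants and wild types they were 1 on the left and 0 on the right without 7_1, 2 and 0 without 8_1, 11 and 12 without 17_7, and on the right 9 without 10_1 and 11 without 22_4. The cause of these changes was not tested. *Mesp2* and *Tbx6* had at most 18 and 50 counts. In inverted mutants the SE of log2 right over left was 0.63 for *Mesp2* and 0.38 for *Tbx6*, beside 0.45 for *Myf5*. The part of depth in these values was not tested.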

Other observations

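*Fst* of the somite derivative list and *Ripply2* of the segmentation list had values not printed above, for the same right over left comparisons. *Fst*, which encodes follistatin, an antagonist of activins and of bone morphogenetic proteins, had mean log2 right over left of 0.37 in wild types, 0.27 in rightward and -1.002 in inverted mutants, with the right higher in 3 of 5, 9 of 11 and 0 of 5 embryos. *Ripply2*, a repressor that acts at the end of segmentation, was at 0 in 6 libraries and had means of 0.42, -0.14 and -1.52. Both genes were chosen after their values were seen. Neither is given with a test, and neither was among the genes that edgeR called.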
